A study of Mus musculus with 8 samples.

Results

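The Cyp4a cluster on mouse chromosome 4 was examined in ATAC-seq peak lists from fasted liver. ATAC-seq marks open chromatin by the places where a transposase can insert sequencing adapters. The members were the consensus regions of the deposited table whose nearest protein-coding gene, within 100 kb of the gene span, was Cyp4a10, Cyp4a14, Cyp4a31, Cyp4a32, Cyp4a12a or Cyp4a12b. This rule gave 25 of 49587 regions. It used positions and no measured value, but every consensus region was called in at least 1 library, so a stretch of the cluster with no peak anywhere is not among the 25.

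The libraries came from flash-frozen livers of C57BL/6 male mice aged 9 weeks, all fasted for 24 h before collection. There were 4 genotypes with 2 libraries each: wild type, Cpt2 L-/- (lacking Cpt2 in liver), Ppara -/- (lacking Ppara), and Cpt2 L-/- ; Ppara -/- (the double knockout, in which Ppara is absent from the whole body). The labels give neither the Cre driver of the liver knockout nor whether the replicates of a genotype were separate animals, so a p-value measures only the spread between these libraries. Cpt2 encodes the carnitine palmitoyltransferase of the inner mitochondrial membrane, which long-chain fatty acids need for oxidation. Wild type and Cpt2 knockout are called Ppara-intact below, and Ppara knockout and double knockout Ppara-null.

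Cyp4a enzymes are microsomal cytochromes P450 that add a hydroxyl group to the terminal, or omega, carbon of fatty acids. Alcohol and aldehyde dehydrogenases turn the product into a dicarboxylic acid, which peroxisomes shorten, and the route carries more fatty acid when mitochondria cannot take it all. Ppara is a nuclear receptor activated by fatty acids that binds DNA with a retinoid X receptor at paired half-sites, and Cyp4a10 and Cyp4a14 are among the classical genes that it induces in fasted rodent liver.

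A start site inside a called region could be shown for Cyp4a32, the 1 gene of the 6 with an entry in the RefSeq promoter table used (GRCm38.p6, the assembly of mm10). The sequence below is the stretch upstream of the gene span, chr4:115600688-115600926, plus strand, 239 bases, and lies wholly inside the region chr4:115600646-115601170. Beside it stands the same stretch of Cyp4a29, a neighbour of the cluster that is no member, chr4:115241794-115242043, plus strand, 250 bases, which no consensus region covered. Capitals mark the best matches to a direct repeat with 1 base between its half-sites (AGGTCA, any base, AGGTCA; both strands searched, up to 3 mismatches).
Cyp4a32: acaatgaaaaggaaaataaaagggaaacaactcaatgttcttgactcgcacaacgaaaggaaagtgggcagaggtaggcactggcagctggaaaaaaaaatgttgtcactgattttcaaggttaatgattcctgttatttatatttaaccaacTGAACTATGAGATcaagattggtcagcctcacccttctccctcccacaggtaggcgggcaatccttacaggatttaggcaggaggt
Cyp4a29: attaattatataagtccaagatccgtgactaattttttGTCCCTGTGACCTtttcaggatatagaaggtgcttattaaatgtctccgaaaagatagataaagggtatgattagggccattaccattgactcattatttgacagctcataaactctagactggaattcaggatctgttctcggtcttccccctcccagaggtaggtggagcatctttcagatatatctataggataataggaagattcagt

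In a global alignment of these stretches, 133 bases were identical, 92 were mismatched and 39 positions were gaps. The identity was 59.1% over the aligned bases, which leaves the gaps out, and no level for unrelated stretches was computed. Each of the windows of 300 bases around the start sites of Cyp4a32, Cyp4a29 and Cyp4a30b held 1 match with 3 mismatches and no exact repeat. A match with up to 3 mismatches was present in 24.7% of the 32544 different promoter windows of that length, and an exact repeat in 0.0399%. The single half-site AGGTCA was present in 16.2% of windows. It was found in that of Cyp4a29, where it overlaps the longer match, and not in those of Cyp4a32 and Cyp4a30b. These matches describe letters, and the promoter that was called and the one that was not were alike in holding 1 match with 3 mismatches.

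The lists held 28733 to 39296 peaks for libraries with Ppara and 18132 to 22715 for those without. Read totals are not given in the sources used here. Nor are the deleted exons, so calls at Cpt2 and Ppara were not used to check the genotype labels. The summit pileup, in tags, and the local background that MACS2 tested it against were recovered from the deposited fold and p of each peak. No library had a background under 4.097 tags, and the weakest peaks at that background had 18 to 19 tags. A region without a call is therefore below the calling limit, and is not shown to be closed. The peak names carry the numbers 441 and 443 in wild type, 446 and 4717 in the first and second Cpt2 knockout libraries, and 6831 to 6834 where Ppara was absent. If these mark batches, a batch effect and Ppara loss cannot be told apart. The second Cpt2 knockout library would then also stand apart from the other Ppara-intact libraries, and values particular to it could not be told apart from a batch effect. All 8 hepatocyte marker genes, among them Alb, Apoa1 and Ttr, had a call in every library.

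Not 1 of the 25 Cyp4a regions was called in any Ppara-null library. In the Ppara-intact libraries 64 of 100 possible calls were made, with 11 and 16 of the 25 regions called in wild type and 17 and 20 in Cpt2 knockout. Over the whole table, 42.3% of regions had no call in the 4 Ppara-null libraries. Regions called in every Ppara-intact library and never without Ppara numbered 10 of 25 at the Cyp4a genes (40.0%), against 6.82% of all regions, and none of the 25 had the opposite pattern, which 0.0686% of all regions had. For each of the 10, a two-sided Fisher's exact test of calls by Ppara status gave p = 0.0286, the smallest that 4 against 4 libraries allow. The pattern that picks out the 10 fixes this value, so it adds no evidence to the count. After Benjamini-Hochberg adjustment over all 49587 regions the adjusted p from this exact test was 0.415. No region of the table passed 0.05 after adjustment, while 3418 had an unadjusted p under 0.05. With a smallest p of 0.0286, none could pass unless most regions of the table reached it. The adjusted values therefore carry no evidence either way about the Cyp4a regions. With these libraries, bulk tissue and peak calls, fewer cells with open chromatin and less open chromatin per cell cannot be told apart.

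The missing calls were next set against regions that equally many Ppara-intact libraries had called. Of all 24051 regions called in the 4 Ppara-intact libraries, 14.1% lacked a Ppara-null call, and at the Cyp4a genes 10 of 10 lacked one. The shares among all regions called in 3, 2 and 1 Ppara-intact libraries were 59.6%, 77.4% and 87.3%, where the Cyp4a counts were 3 of 3, 3 of 3 and 9 of 9. For regions called once, the absence of a Ppara-null call is thus near the background.

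The Ppara-intact lists are longer, so the lists were also compared at an equal length, the strongest 18132 peaks of each library by −log10 p. The wild type libraries then called 5 and 5 of the 25 regions, the Cpt2 knockout libraries 5 and 9, and the Ppara-null libraries 0 each. Regions in all 4 lists with Ppara and none without it then numbered 3, against 0.811% of all regions, and 0 had the reverse pattern, against 0.512%. Over the whole table the directions were thus far closer to each other at equal length than in the full lists. These 3 were the region below Cyp4a10 at chr4:115513870-115514480, the region below Cyp4a31 at chr4:115555458-115556003, and the region near the lower end of Cyp4a31 at chr4:115564496-115565058.

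**Figure D1:**
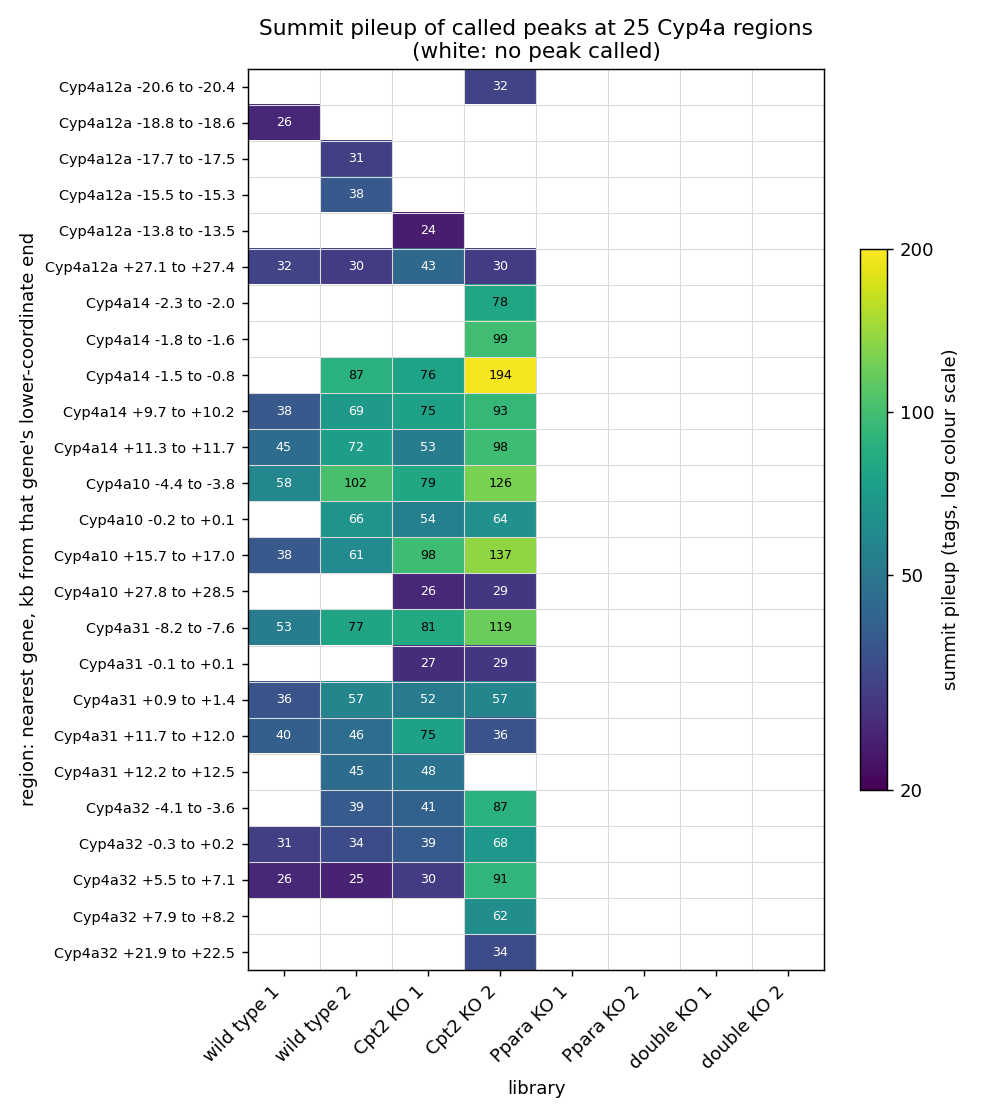
Summit pileup in tags (colour, log scale, and printed number) of the strongest called peak in each of the 25 Cyp4a regions (rows, with distance in kb from the lower-coordinate end of the nearest gene) in each library (columns). White cells had no call: the 4 Ppara-null columns are empty, and the highest value, 194 tags, stands in the second Cpt2 knockout library near Cyp4a14.

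Cyp4a10, an omega-hydroxylase of medium and long-chain fatty acids (chromosome 4, 115518287 to 115533649), had 4 regions. The one with the highest fold in each library lay 3807 bp below the lower end of the gene, at chr4:115513870-115514480. Its summit pileup was 58 and 102 tags in the wild type libraries and 79 and 126 tags in the Cpt2 knockout libraries. Its fold over the local background was 8.1 and 9.66 in wild type and 8.18 and 10.7 in Cpt2 knockout. The genotypes overlapped on both scales, and the second library was the higher of each. A wide region 299 bp beyond the upper end, at chr4:115533948-115535267, measured 1320 bp. Its pileup was 38 and 61 tags in wild type and 98 and 137 tags in Cpt2 knockout, so that here the genotypes did not overlap. How often this holds over all regions was not counted, so it is not shown to be particular to this region. Over the lower end itself, chr4:115518055-115518383 was called in the second wild type library with 66 tags and in the Cpt2 knockout libraries with 54 and 64 tags. The fourth region, chr4:115546117-115546744, lay 12468 bp beyond the upper end and was called in Cpt2 knockout alone, with 26 and 29 tags.

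Cyp4a31, a close relative of Cyp4a10 (115563627 to 115579015), had 5 regions, and the one at chr4:115555458-115556003, 7624 bp below its lower end, had the highest fold of the cluster. The fold there was 10.6 and 13.8 in wild type and 14.8 and 15.3 in Cpt2 knockout. The summit pileup was 53 and 77 tags in wild type and 81 and 119 tags in Cpt2 knockout. By −log10 p it stood at percentiles 65.2 and 72.7 of the wild type lists and 76.8 and 91.9 of the Cpt2 knockout lists, so it was a strong but not an extreme peak. Near the lower end, chr4:115564496-115565058 had 36 and 57 tags in wild type and 52 and 57 tags in Cpt2 knockout, and overlapped between the genotypes. Inside the gene, chr4:115575287-115575638 had 40 and 46 tags in wild type but 75 and 36 tags in Cpt2 knockout, whose libraries were here the highest and the lowest of the 4. Next to it, chr4:115575857-115576153 was called in 1 library of each genotype, with 45 tags in wild type and 48 in Cpt2 knockout. Over the lower end itself, chr4:115563539-115563777 was called in Cpt2 knockout alone, with 27 and 29 tags.

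Cyp4a14 (115486200 to 115496158), a fatty acid omega-hydroxylase strongly induced by Ppara agonists, had 5 regions, among them the one with the highest pileup of the cluster. The region 793 bp below its lower end, chr4:115484714-115485407, had 87 tags in the second wild type library, 76 in the first Cpt2 knockout library and 194 in the second, and no call in the first wild type library. Below it, chr4:115484365-115484633 and chr4:115483903-115484151 were called in the second Cpt2 knockout library alone, with 99 and 78 tags. Across the upper end, chr4:115495871-115496389 had 38 and 69 tags in wild type and 75 and 93 tags in Cpt2 knockout. Just beyond, chr4:115497460-115497887 had 45 and 72 tags in wild type and 53 and 98 tags in Cpt2 knockout. The first wild type library was the lowest at each of the 3 Cyp4a14 regions that more than 1 library called, counting a missing call as lowest.

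Cyp4a32 (115600927 to 115622507), another relative of Cyp4a10, had 5 regions. The region that holds the promoter printed above, chr4:115600646-115601170, had 31 and 34 tags in wild type and 39 and 68 tags in Cpt2 knockout. A region 3622 bp below the lower end, chr4:115596818-115597305, had 39 tags in the second wild type library and 41 and 87 tags in Cpt2 knockout, and no call in the first wild type library. Inside the gene, chr4:115606438-115608003 had 26 and 25 tags in wild type and 30 and 91 tags in Cpt2 knockout. The peak in the last of these libraries was 1566 bp wide, against 233 to 267 bp in the other three. Of the remaining regions, chr4:115608852-115609170 with 62 tags and chr4:115622793-115623391 with 34 tags were called in the second Cpt2 knockout library alone.

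Cyp4a12a (115299046 to 115332815), an omega-hydroxylase expressed more in male than in female mice that also oxidises arachidonic acid, stood apart from the other genes. Of its 6 regions, 5 lay 13487 to 20403 bp below its lower end and were each called in 1 library alone, with 24 to 38 tags. The other one, chr4:115326131-115326455 inside the gene, was called in the 4 Ppara-intact libraries, with 32 and 30 tags in wild type and 43 and 30 tags in Cpt2 knockout. None of the 6 Cyp4a12a regions was called in any equal-number list. Cyp4a12b (115411624 to 115439034), a close copy of Cyp4a12a, had no region. It lies in the widest interval without any consensus region, 157 kb from 115326456 to 115483902. How reads that match several copies were treated is not given in the sources used here, and its part in the empty interval was not tested.

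**Figure D2:**
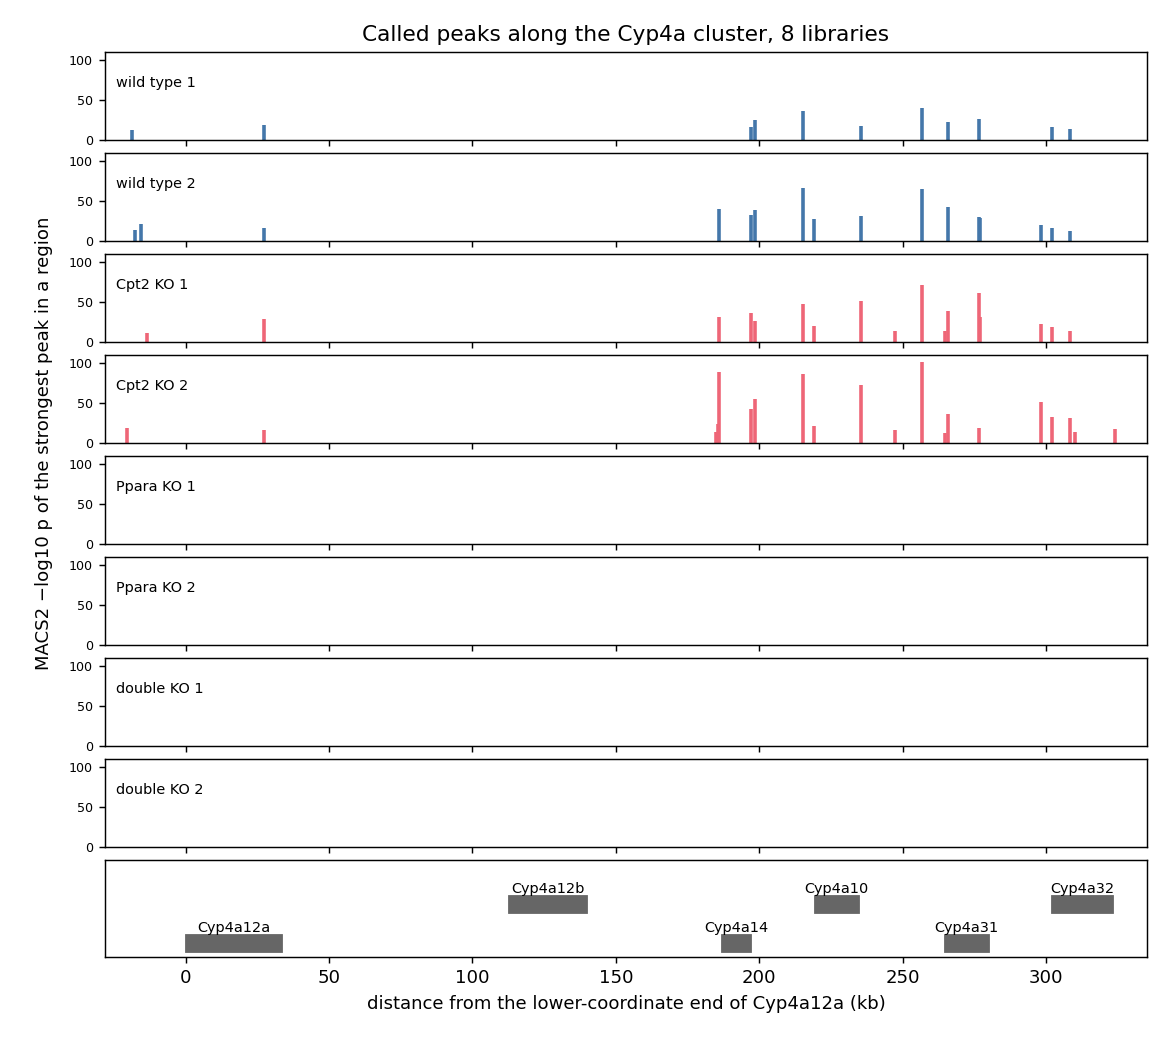
MACS2 −log10 p of the strongest peak in each called Cyp4a region (bars) against distance in kb from the lower-coordinate end of Cyp4a12a, with 1 track per library and the spans of the 6 genes below. The bars of the Ppara-intact libraries stand mostly between Cyp4a14 and Cyp4a32, with none over Cyp4a12b, and the 4 Ppara-null tracks are empty.

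Ordered by calls in the Ppara-intact libraries, Cyp4a10 had 13 of 16 possible calls, Cyp4a31 had 16 of 20, Cyp4a14 and Cyp4a32 had 13 of 20 each, and Cyp4a12a had 9 of 24. Library by library, wild type called 2 and 3 regions at Cyp4a10, Cyp4a14 and Cyp4a32 and 3 and 4 at Cyp4a31. The first and second Cpt2 knockout libraries called 4 and 4 at Cyp4a10, 3 and 5 at Cyp4a14, 5 and 4 at Cyp4a31 and 3 and 5 at Cyp4a32. The counts of neighbours in this order thus overlapped over the libraries. The 19 regions of these 4 genes lay within 139 kb, between 115483903 and 115623391.

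Placement showed parallels between relatives that the rule did not use. These genes are similar in sequence, the treatment of reads that match several copies is not given in the sources used here, and its part in these parallels and in the calls per gene was not tested. Below the lower end, a region lay from -4417 to -3807 bp at Cyp4a10 and from -4109 to -3622 bp at Cyp4a32, where 0 is the lower end of the gene span. At Cyp4a31 the nearest region wholly below the lower end lay farther out, from -8169 to -7624 bp. The sequences of these regions were not compared. The lower end itself was covered in all 3 genes, from -232 to 96 bp at Cyp4a10, from -88 to 150 bp at Cyp4a31 and from -281 to 243 bp at Cyp4a32. Beyond the upper end, regions began 299 bp out at Cyp4a10 and 286 bp out at Cyp4a32, with none at Cyp4a31. The one at Cyp4a32 rests on a single call, in the second Cpt2 knockout library with 34 tags. At the lower ends, the pileup did not exceed 68 tags in any library. In all 3 genes a region farther below had a higher pileup than the lower end in each library that called both. The margin was small at Cyp4a32, with 39 against 34 tags in the second wild type library and 41 against 39 in the first Cpt2 knockout library. In the second Cpt2 knockout library it was 87 against 68.

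Pairs of genotypes were compared by regions called in both libraries of 1 genotype and in neither of the other. Here 2 against 2 libraries allow no exact p below 0.333, so none is given. Between Ppara knockout and wild type, 10 Cyp4a regions were called only in wild type, against 13.6% of all regions, and 0 only in the knockout, against 0.46%. Between double knockout and wild type the same 10 regions were called only in wild type, against 12.9% of all regions, and 0 only in double knockout, against 1.2%. Without the first wild type library these counts were 16 each. These comparisons share the wild type libraries.

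Loss of Ppara on top of Cpt2 loss was read by setting the double knockout beside Cpt2 knockout. That left 15 Cyp4a regions called only in Cpt2 knockout (60.0% of the 25), against 20.4% of all regions, and 0 only in double knockout, against 0.597%. The 15 included the 10 above and 5 more: the regions over the lower ends of Cyp4a10 and Cyp4a31, those 793 bp below Cyp4a14 and 3622 bp below Cyp4a32, and the distal region beyond Cyp4a10. Between double knockout and Ppara knockout no Cyp4a region was separated in either direction, against 2.33% and 1.45% of all regions, since none was called in either genotype. Where Ppara was absent, the Cyp4a genes thus had no call with or without Cpt2.

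With Ppara present, loss of Cpt2 gave 2 regions called in both Cpt2 knockout and neither wild type library, at the lower end of Cyp4a31 and 12468 bp beyond Cyp4a10. That is 2 of 25, against 3.63% of all regions, and 0 regions were called only in wild type, against 0.512%. Both were weak, with 26 to 29 tags. Single libraries decided this count. Without the first Cpt2 knockout library 7 regions were called only in Cpt2 knockout. Without the second wild type library there were 5 such regions and 1 of the opposite kind, and without the first wild type library there were 2 of each kind. By Cpt2 status over all 8 libraries, no Cyp4a region was called in all Cpt2-null and no Cpt2-intact libraries or the reverse, patterns that 0.0968% and 0.00605% of all regions had.

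At the 10 regions separated by Ppara status, the second Cpt2 knockout library was most often alone highest, in pileup and in fold. In fold it was so at 5 regions and the first Cpt2 knockout library at 3, though the median fold was highest in the first. The median summit pileup over the 10 was 38 and 59 tags in wild type and 64 and 92 tags in Cpt2 knockout. Both Cpt2 knockout libraries exceeded both wild type libraries in pileup at 5 of the 10 regions and lay below both at 0. The second Cpt2 knockout library alone was highest at 7, and the first wild type library alone was lowest at 7. On the fold scale, which divides by the local background, both Cpt2 knockout libraries exceeded both wild type libraries at 2 of the 10. Median folds were 6.51 and 6.74 in wild type and 7.62 and 6.75 in Cpt2 knockout, and so the genotypes overlapped less in pileup than in fold at single regions. In local background, as in pileup, both Cpt2 knockout libraries exceeded both wild type libraries at 5 regions and lay below both at 0. Such counts were not made over all regions, so they are not shown to be particular to the Cyp4a genes. No test was made of these values, which come from separately called lists. The peak names of the second Cpt2 knockout library also carry the number 4717, far from the 441 to 446 of the others with Ppara.

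**Figure D3:**
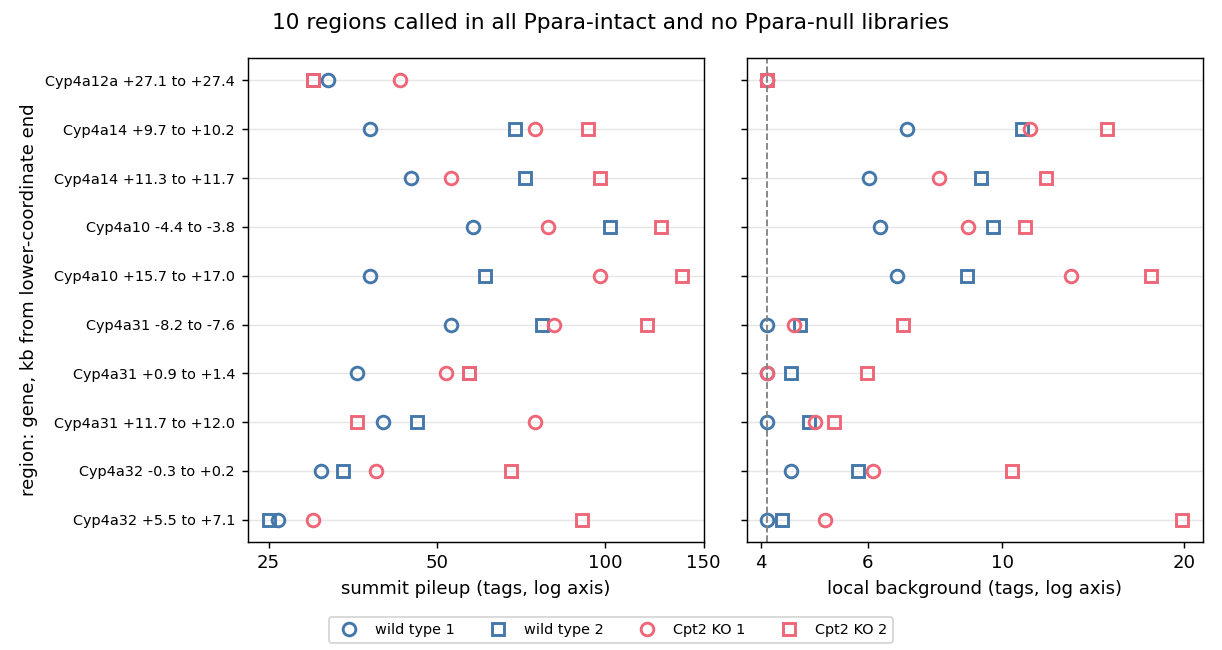
Summit pileup (left) and MACS2 local background (right), both in tags on log axes, at the 10 regions that each Ppara-intact library called and no library without Ppara did. Circles are first and squares second libraries, blue wild type and red Cpt2 knockout, symbols of equal value overlap, and the dashed line is the lowest background of 4.097 tags. The second Cpt2 knockout library stands highest in pileup alone at 7 of the 10 regions.

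The local background at Cyp4a14 and Cyp4a10 reached values above the median of the list in 3 of the 4 Ppara-intact libraries, the first wild type library being the exception. In the second Cpt2 knockout library it reached 30.0 tags at Cyp4a14, a value above that of 99.1% of this library's peaks, whose median was 7.84. It reached 19.8 tags at Cyp4a32 and 17.6 at Cyp4a10 in the same library. The highest backgrounds at Cyp4a14 were 14.1 tags in the first Cpt2 knockout library and 6.98 and 13.7 in the wild type libraries, against list medians of 7.5, 7.32 and 7.62. At Cyp4a31 the highest was 4.1 to 6.86 tags over the 4 libraries, and at Cyp4a12a it was 4.1 to 5.48, below the list medians. Near Cyp4a14, a similar pileup in this second Cpt2 knockout library went with different folds: 99 tags gave 3.29 at chr4:115484365-115484633 and 98 tags gave 7.71 at chr4:115497460-115497887. Whether the MACS2 background came from the library itself or from a control is not given in the sources used here.

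The neighbourhood of the cluster was compared by the 38 regions within 500 kb that were assigned to other genes. Calls filled 61.8% of their positions in libraries with Ppara and 33.6% in those without, near the 69.4% and 38.9% of all regions, where the Cyp4a regions had 64.0% and 0.0%. Of the 38, 22 had a call in a Ppara-null library, 7 were called in all 8 libraries and 3 were called in each Ppara-intact library but never without Ppara. Of all regions, 42.3% had no Ppara-null call, 22.7% were called in all 8 libraries and 6.82% had the last pattern. The counts at the 38 are near these shares. The 3 with the last pattern lay inside Cyp4x1 (chr4:115121639-115121985), 27369 bp from Efcab14 (chr4:115709835-115710347) and inside Faah (chr4:116016872-116017381). Beyond Cyp4a32, a region 11479 bp from Cyp4b1 (chr4:115659200-115659600) was called in the 4 Ppara-intact libraries and also in the first Ppara knockout and first double knockout libraries, the latter with folds of 5.3 and 6.08.

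**Figure D4:**
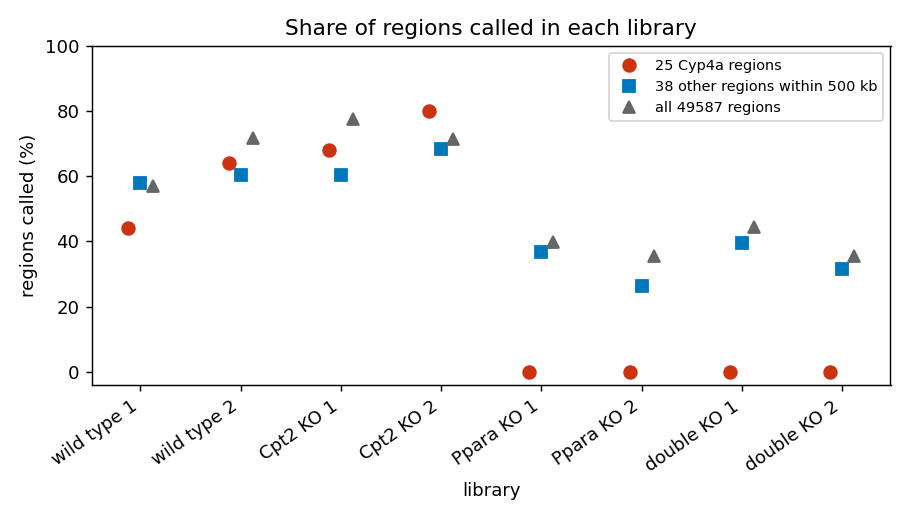
Share of regions called (%) in each library for the 25 Cyp4a regions (red circles), the 38 other regions within 500 kb (blue squares) and all 49587 regions (grey triangles). In the Ppara-null libraries the Cyp4a share is 0.0% and the neighbouring share is 26.3% to 39.5%.

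Other genes of omega oxidation had calls without Ppara as a group, though not at every gene. The list held 32 genes with 172 regions, of which 16 were called in every library with Ppara and none without it, 0 showed the reverse and 37 were called in all 8. These are 9.3% and 21.5% of the 172, near the 6.82% and 22.7% of all regions. Of the 30 genes with a region, 5 had no Ppara-null call: Cyp4x1, Cyp4a29, Adh4, Aldh3a1 and Acaa1b. The share over all genes was not computed. Cyp4a29 and Aldh3a1 had 1 region each, called in 1 and 2 Ppara-intact libraries. Of all regions called so often, 87.3% and 77.4% lacked a Ppara-null call. Among 14 other Cyp4 genes, 3 of 37 regions (8.11%) had calls in each Ppara-intact library alone, 1 inside Cyp4x1 and 2 at Cyp4v3, another fatty acid omega-hydroxylase. The electron donors Por, Cyb5a and Cyb5r3, which feed microsomal P450s or related enzymes, had 0 of 28 such regions, and 12 of the 28 were called in all 8 libraries. The alcohol and aldehyde dehydrogenases had 4 of 49 (8.16%), at Adh4, Aldh3a2 and Aldh1a1, where Aldh3a2 is the fatty aldehyde dehydrogenase. Dicarboxylate activation and peroxisomal oxidation had 9 of 58 (15.5%), among them all 3 regions of Acaa1b, a peroxisomal thiolase.

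By mean −log10 p, the 3 strongest of these 16 regions lay at Acaa1b and Acsl1, a long-chain acyl-CoA synthetase. The region at Acaa1b, chr9:119156848-119157351, had folds of 4.38 and 7.29 in wild type and 6.5 and 6.4 in Cpt2 knockout. The region 66448 bp from Acsl1, chr8:46404114-46404589, had folds of 8.16 and 12.8 in wild type and 10.4 and 11.9 in Cpt2 knockout. Inside Acsl1, chr8:46490738-46491174 had folds of 6.35 and 7.33 in wild type and 6.24 and 7.13 in Cpt2 knockout. At all 3 the genotypes overlapped. Acsl1 also had 6 regions called in all 8 libraries, unlike the Cyp4a genes, which had none.

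Genes with a pattern of calls like that of the cluster were sought among 773 other genes with at least 10 regions, by the mean absolute difference of the shares called over the 8 libraries. The nearest was Pecam1, an endothelial adhesion molecule, at 7.5 percentage points over 10 regions, and the 5 nearest also held Esrrg at 8.56, Aldh1a1 at 9.06 and Rgs6 at 9.23, where the median gene differed by 23.7 points. Pecam1 was the 1 gene of the 773 with no Ppara-null call. Calls at markers of other liver cells, mainly endothelial, were also fewer without Ppara. Of the 32 regions within 1 kb of 14 marker genes of immune, endothelial, stellate and bile duct cells, 12 to 23 were called per Ppara-intact library, over 6 to 8 of the genes, and 3 to 5 per Ppara-null library, over 2 to 3 genes. As shares these are 37.5% to 71.9% and 9.38% to 15.6%, where all regions had 56.9% to 77.7% and 35.5% to 44.5%. Of the 32 regions, 26 were endothelial, 7 of them at Pecam1, and 1 was immune, 2 were stellate and 3 bile duct. The endothelial shares were 34.6% to 69.2% and 11.5% to 19.2%, and the other cell types had too few regions to read alone. Ptprc, Adgre1, Clec4f, Cd3e, Des and Krt19 had no region within 1 kb and so no call in any library. Of the 48 hepatocyte marker regions, 23 to 32 were called per Ppara-intact and 22 to 27 per Ppara-null library, or 47.9% to 66.7% and 45.8% to 56.2%. The part of cell makeup or of list quality in the missing Cyp4a calls was not tested.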

How the data were processed

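The authors deposited 8 peak lists, 1 per library, and a table of consensus positions. BWA, MACS2 2.1.0 and mm10 are named in the submitters' processing notes, without their roles, and the deposited peak names also hold MACS2 and mm10. How reads were filtered, and whether duplicates were removed or Tn5 cut sites shifted, is not given in the sources used here. Each deposited peak carries a score (10 times −log10 p), a fold ratio over local background, and −log10 p and −log10 q values. Depth as a read total is not given in the sources used here, though the lowest recovered background was 4.097 tags in every library.

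A region counted as called where any peak shared 1 bp or more with it, and the strongest peak by −log10 p gave its values. Pileup and background were solved from fold = (pileup + 1)/(background + 1) and the Poisson p, within 0.01 of the deposited −log10 p, which succeeded for 100% of peaks in the Ppara-intact lists. Gene spans came from RefSeq GRCm38.p6 (21900 protein-coding genes), which gives neither strand nor exons, so ends are called lower and upper by coordinate. Calls were compared by Fisher's exact test over all regions with Benjamini-Hochberg adjustment. The counting and solving steps were tested on simulated data. Python 3.11.15, NumPy 2.4.6, SciPy 1.17.1, pandas 2.3.3, Biopython 1.88 and matplotlib 3.10.9 were used.

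Members, gene lists and tests were chosen with earlier results of these data known. Named were all 6 genes and all 25 regions, the 5 genes nearest in pattern among those with at least 10 regions (1 of them is not reported here), and the 3 strongest separated regions of the pathway list. Regions separated in the neighbourhood, and a neighbouring region at Cyp4b1, were named after their values were seen. Alternatives were equal-number lists, a −log10 q of at least 20, 50% cover, a 10 kb distance limit, each library left out in turn, and a block on the replicate number.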

Additional observations from a re-analysis of the deposited data

How the results depend on the processing

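No direction turned under any of the 73 alternatives, but not all comparisons could turn. No Cyp4a region had a Ppara-null call, and the alternative counts only take calls, regions or libraries away. The Ppara comparisons could therefore not turn. Between Cpt2 knockout and wild type the direction was lost without the first wild type library, with 2 regions of each kind. It was also lost at a −log10 q of at least 20, with 0 of each kind. The cause of the lower counts was not tested. Equal-number lists gave 3 regions by Ppara status and 4 when wild type was set against Ppara knockout. They gave 4 for wild type and 4 for Cpt2 knockout, each set against the double knockout, and 1 between Cpt2 knockout and wild type. A −log10 q of at least 20 gave 3, 4, 4, 7 and 0 in the same order. For Cpt2 knockout against wild type, 50% cover and a 10 kb limit each gave 1. Leaving out each library in turn gave 10 to 13 by Ppara status, 10 to 16 for either Ppara-null genotype beside wild type, 15 to 20 between the double and Cpt2 knockouts, and 3 to 7 between Cpt2 knockout and wild type. With the replicate number as a block, the exact p of a separated region was 0.0556 in place of 0.0286, the smallest that the block allows. The numbers are not shown to pair libraries: correlations of same-numbered deviations were -0.0314 to 0.0255 over the 6 pairs of genotypes. Leaving out a library for the exact p was added after seeing the data and gave 0.0286 each time. The pattern of a separated region fixes this value too, so it adds no evidence.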
